A study of Rattus norvegicus with 30 samples.

Results

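The genes described here are those whose RNA was raised in the brain of valproate-exposed pups of the NEC rat strain, and the question put to them is what they did in a second strain, GAERS. A row of the count table was a member when its mean over all 30 libraries was at least 4 CPM (the count divided by the library's column total, times 1000000) and its median in the 7 exposed NEC libraries was at least 1.41 times that in the 8 NEC control libraries. Of 32586 rows, 11973 had a mean of 4 CPM or more and 176 met both conditions. The rule left out 2 of these by identifier, and the other 174 are the members. All 174 also passed the filter on low counts, so none was lost before testing. The NEC libraries chose the members, so NEC values are given as a description with no test. The GAERS libraries took part only in the mean over all libraries, and VPA in GAERS is the tested comparison.

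Valproate (VPA) is an antiseizure and mood-stabilising drug. It acts on sodium and calcium channels and on GABA metabolism, and it also inhibits class I histone deacetylases, the enzymes that remove acetyl groups from histone tails. Acetylated histones mark open chromatin at active genes, and inhibitors of these enzymes raise some genes and lower others. Exposure to the drug before birth is a recognised risk for brain development, and for that reason it is studied in rodent pups.

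Total RNA of brain tissue was sequenced from single rat pups in 4 groups, which the labels define by strain and exposure alone. GAERS (Genetic Absence Epilepsy Rats from Strasbourg) is an inbred line in which absence seizures arise spontaneously. NEC (Non-Epileptic Controls) is the inbred line without them. There were 8 non-exposed NEC pups, 7 VPA-exposed NEC pups, 8 non-exposed GAERS pups and 7 VPA-exposed GAERS pups. The labels give no dose, route, time of exposure, age, sex, litter or brain region. Pups may therefore share dams, and all p-values reflect the spread among these pups alone. In a bulk sample, fewer cells of a type and less RNA per cell cannot be told apart. The table identifies genes by rat Ensembl identifiers, and the sources used here pair none of them with a symbol. The tissue could therefore not be checked against marker genes, no member can be assigned a function, and members are described by number, size, read share and behaviour across pups. At most 4 are named by identifier.

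Libraries held 26963266 to 56568656 counts. In NEC control 3 and GAERS control 1 the members' level was the lowest of the group, and in NEC VPA 7 and GAERS VPA 4 the highest. Values without these libraries are given beside the results they touch. All of them lie on the side that widens the VPA difference, and the opposite extremes were not left out together. A further division runs through all groups. In every group 8 genes had a gap of more than 2 on the log2 scale between a high and a low set of pups, and 7 of the 8, of which 1 is a member, divided the 30 pups in the same way. Pups in which that member was expressed are called set A and the others set B. Set A held 3 of 8 NEC controls, 3 of 7 exposed NEC pups, 5 of 8 GAERS controls and 3 of 7 exposed GAERS pups. The labels do not say what divides the sets.

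In NEC, where they were chosen, the members formed a set of mostly modest increases. The ratio of medians ran from 1.41 to 4.21 with a median of 1.503. It was under 1.5 in 84 members, 1.6 or more in 50 and 2 or more in 6. By edgeR the median log2 fold change in NEC was 0.56, or 1.47-fold. In that contrast 143 of 174 members had an adjusted p under 0.05 in the higher direction, beside 11.1% of all tested genes, and in 40 members every exposed NEC pup lay above every NEC control, beside 1.72% of all tested genes. The rule used this contrast, so nothing is read from these counts. The members just inside the threshold had ratios of 1.4103 and 1.4114 and GAERS log2 fold changes of 0.27 and 0.32. The rows just outside had ratios of 1.4095 and 1.4089 and GAERS log2 fold changes of 0.18 and 0.31, so the threshold does not fall at a break in the values.

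In GAERS most members were also higher after VPA, by smaller amounts, and a minority passed the test. Of the 174 members, 28 (16.1%) were called higher in exposed GAERS pups by edgeR (quasi-likelihood test, adjusted p under 0.05 by Benjamini-Hochberg over all 15885 tested genes), beside 1.88% of all tested genes. Among tested rows with a mean of 4 CPM or more, the range from which members come, the background was 1.86%. No member was called lower, beside 1.94% of all tested genes. DESeq2 and limma also called 0 members lower. At an unadjusted p under 0.05 edgeR had 86 members higher, beside 9.29% of all tested genes, and 2 members lower, beside 8.62%. The median log2 fold change of the 174 members in GAERS was 0.26 (1.201-fold), with quartiles of 0.13 and 0.33, beside a median of 0.00 over all tested genes. The log2 fold change was above 0 in 156 of 174 members (89.7%), beside 51.0% of all tested genes. The count of 28 rested partly on GAERS VPA 4: without this pup 11 members were called higher, beside 0.890% of all tested genes, and without GAERS VPA 4 and GAERS control 1 together 10 were, beside 1.21%, with a median log2 fold change of 0.17. With NEC control 3 and NEC VPA 7 left out as well, 22 were called higher, beside 3.05%, and the median was 0.17.

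**Figure D1:**
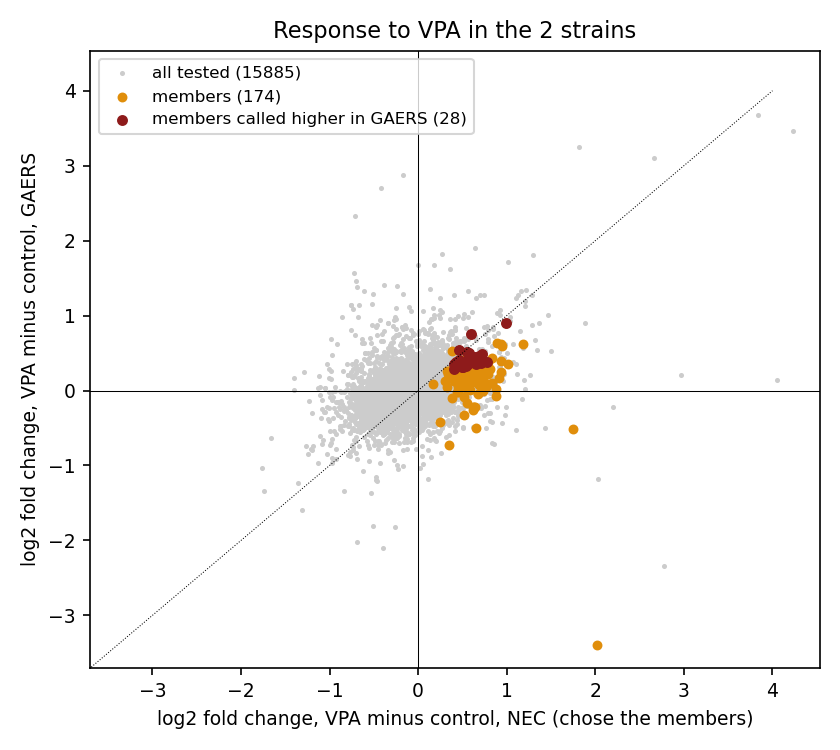
Log2 fold change for VPA against control in NEC (horizontal) and in GAERS (vertical) for each tested gene, with the 174 members and the 28 of them called higher in GAERS marked, and a dotted line of equal change. All members lie right of 0 because the rule chose them there, and 156 of them lie above 0 in GAERS, with 3 above the dotted line.

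Read as a level per pup, the members separated exposed from control pups in NEC, where the rule chose them for this difference, and with some overlap in GAERS. For each pup the median over the 174 members was taken of log2(CPM + 0.5) minus the member's mean over the 30 pups. NEC controls ran from -0.72 to 0.01 with a median of -0.22, and exposed NEC pups from 0.02 to 0.48 with a median of 0.34. GAERS controls ran from -0.47 to 0.03 with a median of -0.05. The 7 exposed GAERS pups were at 0.27, 0.04, -0.13, 0.39, 0.18, 0.00 and 0.19. Thus 5 of the 7 exposed GAERS pups were above all 8 GAERS controls, exposed GAERS pup 6 was within their upper range, and exposed GAERS pup 3 was below all but 2 of them. GAERS control 1, at -0.47, was the lowest of its group, and the next was at -0.19.

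**Figure D2:**
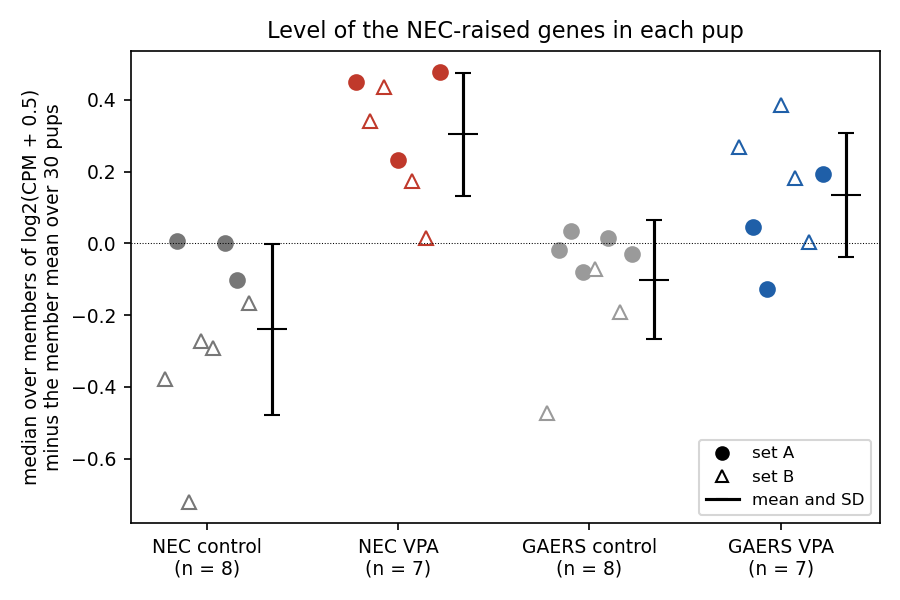
Each symbol is a pup: the median over the 174 members of log2(CPM + 0.5) minus each member's mean over the 30 pups, by group, with the group mean and SD (n = 7 or 8). Filled circles are set A and open triangles set B. Exposed NEC pups all lie above the NEC controls, a difference that the rule selected for. Exposed GAERS pups range from -0.13 to 0.39 against -0.47 to 0.03 in GAERS controls.

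Counted member by member, the pups of a group differed widely. GAERS VPA 7 was above the GAERS control median in 153 of 174 members, GAERS VPA 1 and GAERS VPA 4 in 151 each, GAERS VPA 5 in 141 and GAERS VPA 2 in 122. GAERS VPA 6 was above it in 102 members and GAERS VPA 3 in 72. GAERS VPA 4 exceeded all 8 GAERS controls in 131 members, while GAERS VPA 3 did so in 30. Among GAERS controls the same count against their own median ran from 14 members in GAERS control 1 to 140 in GAERS control 6. The members thus behaved in large part as a block within a pup, high or low together. These counts are given without a share over all tested genes, so they describe the members alone.

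The log2 fold changes of the 28 members called in GAERS ran from 0.29 to 0.90, or 1.23-fold to 1.86-fold, with a median of 1.31-fold. The lower end depends on the test that called them, and 5 of the 28 exceeded 0.5. All 28 also had an adjusted p under 0.05 in NEC, and 18 of them were among the 40 members without overlap in NEC, although NEC chose them. Their mean over 30 libraries was 4.30 to 79.0 CPM. They differed from the other 146 members in spread more than in NEC size: the median within-group SD on the log2 scale was 0.18 in the called and 0.27 in the uncalled members, while the median NEC log2 fold change was 0.56 in both. The spread enters the test that calls a member, so this describes the calls. Among the 146 uncalled members, 128 had a log2 fold change above 0 in GAERS, and their median was 0.23. The GAERS values differed by the NEC test. The 143 members with an edgeR adjusted p under 0.05 in NEC had a GAERS median of 0.29, with 140 above 0. The other 31 had a GAERS median of 0.01, with 16 above 0 and 0 called, beside 1.88% of all tested genes. Both contrasts come from the same fit and share its estimate of the spread. The median GAERS SE was 0.12 in the 143 and 0.30 in the 31. This split, and the NEC calls of the 28, are therefore a description. In simple counts per pup, GAERS VPA 4 and GAERS VPA 5 exceeded all GAERS controls in 28 of the 28, and GAERS VPA 3 in 13. The calls were made on these same pups, so these counts describe the calls and are no further support.

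In 7 of 174 members (4.02%) every exposed GAERS pup lay above every GAERS control, beside 0.472% of all tested genes, and in 0 members did every exposed pup lie below every control, beside 0.648%. Of these 7, 5 were among the 28 called. The widest separation in log2 fold change was that of ENSRNOG00000020095, described below. The most precisely measured of the 7 had a mean of 66.2 CPM. It was at 46.2 to 57.3 CPM in GAERS controls and 63.9 to 77.6 CPM in exposed GAERS pups, higher by 0.42 ± 0.06 (SE) on the log2 scale with an edgeR adjusted p of 5.27e-05, and its NEC groups did not overlap either. Without GAERS VPA 3, 26 members no longer overlapped between the GAERS groups, beside 0.850% of all tested genes, so this single pup closed the gap in many of them.

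ENSRNOG00000032720 had the highest log2 fold change in GAERS of the members called there. Non-exposed GAERS pups were at 3.14 to 6.95 CPM, with a mean of 4.65 ± 1.39 CPM (SD, n = 8). The 7 exposed GAERS pups were at 4.001, 9.90, 14.1, 7.09, 8.92, 6.85 and 9.61 CPM. All but GAERS VPA 1 and GAERS VPA 6 were above every control, and GAERS VPA 3 was the highest. It was 1.86-fold higher in exposed pups, a log2 fold change of 0.90 with an SE of 0.23 (edgeR adjusted p = 0.0235). Without GAERS VPA 3 it was 0.73 with an edgeR adjusted p of 0.0765, and without GAERS control 5 it was 0.85 with an adjusted p of 0.0535. In NEC, where it had the third-highest ratio, controls were at 4.05 ± 1.602 CPM (SD, n = 8) and exposed pups at 8.07 ± 1.37 CPM (SD, n = 7).

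ENSRNOG00000020095 rose in every exposed GAERS pup. Non-exposed GAERS pups were at 8.12 to 10.1 CPM, with a mean of 9.23 ± 0.593 CPM (SD, n = 8). The exposed pups were at 12.5, 15.2, 18.3, 18.3, 19.1, 13.2 and 11.8 CPM, so the groups did not overlap. The increase was 1.68-fold, a log2 fold change of 0.75 with an SE of 0.12 (edgeR adjusted p = 0.000327). It stayed between 0.69 and 0.80 when each GAERS library was left out. In NEC 6 of 7 exposed pups were at 10.7 to 14.5 CPM and NEC VPA 7 was at 6.77 CPM, below all 8 NEC controls, which were at 7.38 to 9.36 CPM.

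The members with the lowest log2 fold changes in GAERS did not pass the test and varied strongly between pups. ENSRNOG00000011207 had the highest NEC ratio of all members, 4.21, on NEC medians of 0.768 and 3.23 CPM. NEC controls ran from 0.0178 to 8.73 CPM and exposed NEC pups from 0.0783 to 39.0 CPM. In GAERS, controls 2, 5 and 6 were at 64.0, 97.6 and 78.9 CPM and the other 5 at 0.0940 to 8.71 CPM, while exposed pups 1 and 6 were at 7.87 and 13.3 CPM and the other 5 at 0 to 0.163 CPM. The difference of -3.40 on the log2 scale had an SE of 1.34 and an edgeR adjusted p of 0.164. The groups overlapped in both strains. The member with the second-highest ratio was high in many of the same pups, and the within-group deviations of the pair correlated with r = 0.92 over the 30 pups, a description over libraries shared by both genes.

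ENSRNOG00000045989 was at 10.9 to 40.0 CPM in GAERS controls, with a mean of 21.4 ± 9.41 CPM (SD, n = 8), and at 7.91 to 19.4 CPM in exposed GAERS pups, with a mean of 12.9 ± 4.62 CPM (SD, n = 7). The groups overlapped, and the log2 fold change of -0.72 ± 0.29 (SE) had an edgeR adjusted p of 0.175. GAERS control 3 held the highest value, and leaving that pup out gave a log2 fold change of -0.53. In NEC, controls were at 7.44 to 18.7 CPM and exposed pups at 6.53 to 22.4 CPM, with an edgeR log2 fold change of 0.35 against a ratio of medians of 1.76. Membership here rests on where the median pup of each group fell.

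**Figure D3:**
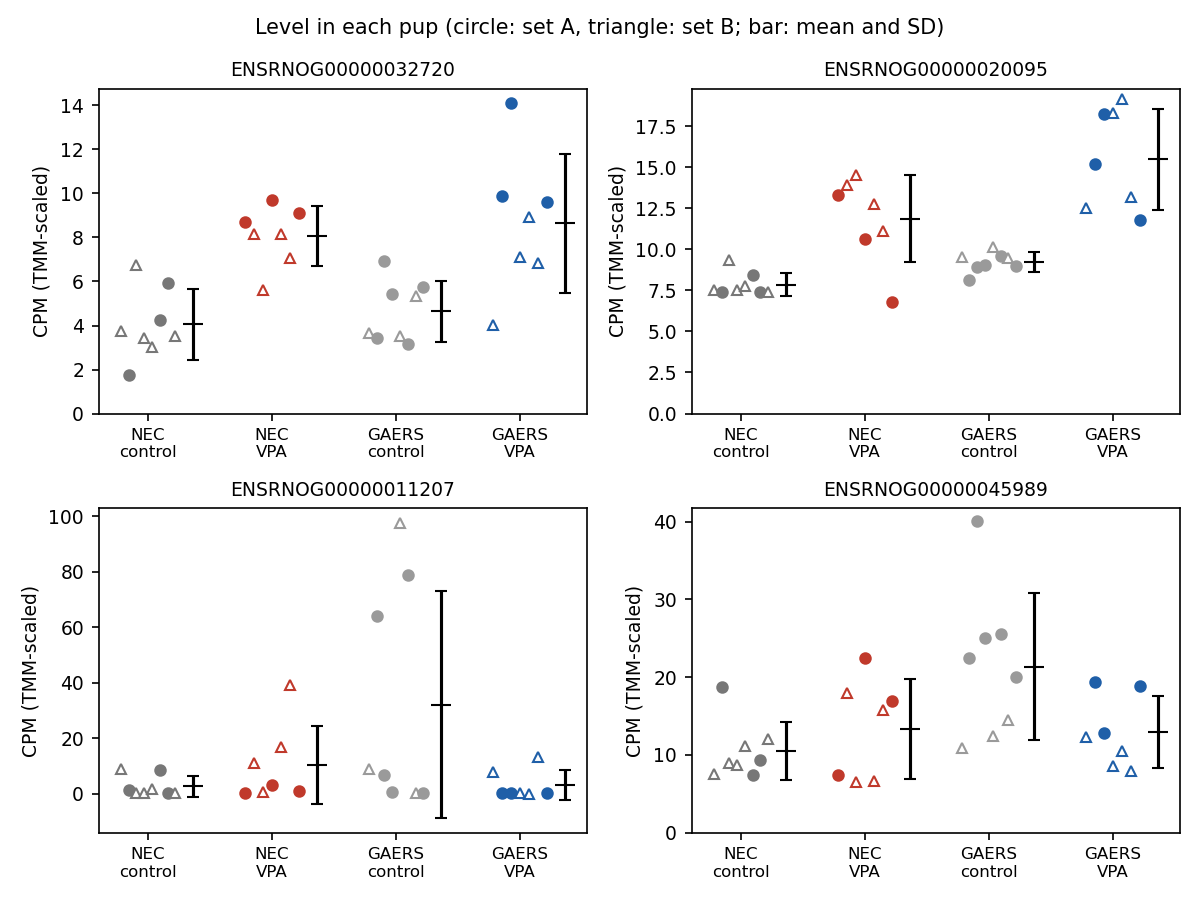
TMM-scaled CPM of the 4 members named by identifier in each pup, by group, with mean and SD (n = 7 or 8), circles for set A and triangles for set B. The upper panels show the members called higher in exposed GAERS pups, without overlap in ENSRNOG00000020095, and the lower panels the members with the lowest log2 fold changes there, with overlapping groups and, in ENSRNOG00000011207, values from 0 to 97.6 CPM.

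A further member entered the set on medians close to 0. It is the member that divides the pups. It was at more than 10 CPM in 3 of 8 NEC controls and 3 of 7 exposed NEC pups, and near 0 in the rest, so both medians fell among near-zero pups, at 0.0640 and 0.121 CPM. Its log2 fold change in GAERS was -0.42 with an edgeR adjusted p of 0.918, beside 5 of 8 control and 3 of 7 exposed pups above 10 CPM. It and ENSRNOG00000011207 were the 2 members with an NEC control median under 1 CPM.

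Among rows with a mean of 4 CPM or more, the GAERS response differed by NEC ratio band, in libraries that the ratio did not use. The 9870 with an NEC ratio of 0.833 to under 1.2 had a median GAERS log2 fold change of 0.00, and 1.16% of them were called higher in GAERS. The 769 rows between 1.2 and 1.41 had a median of 0.15, and 77 of them (10.01%) were called higher. Among the members, the 124 with ratios of 1.41 to under 1.6 had a median of 0.25 with 19 called (15.3%), and the 44 with ratios of 1.6 to under 2 had a median of 0.29 with 8 called (18.2%). The 6 members at 2 or more had a median of 0.31 with 1 called, and their quartiles spanned -0.32 to 0.56. On the lower side, the 183 rows from 0.5 to under 0.709 had a median of -0.20, with 0 called higher and 16 called lower. The lowest band, under 0.5, held 4 rows with a median of -0.01, with 0 called higher and 1 called lower. Within the 174 members the ratio and the GAERS log2 fold change had a Spearman rho of 0.04, a description across genes that are not independent.

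**Figure D4:**
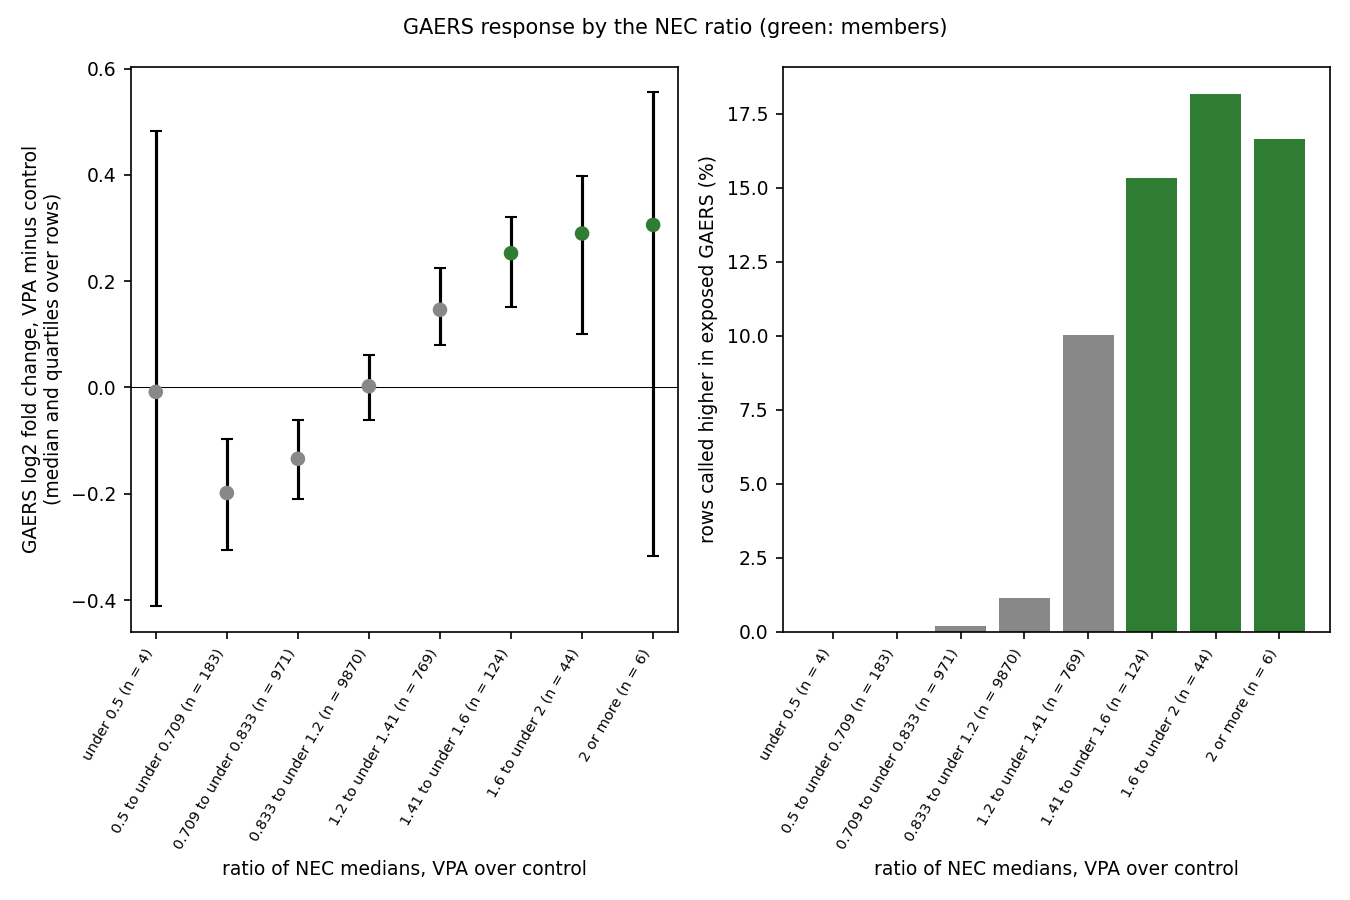
Left, median and quartiles of the GAERS log2 fold change for VPA in rows grouped by their NEC ratio (rows with a mean of 4 CPM or more). Right, the percentage of those rows called higher in exposed GAERS pups. Green marks the members. The median goes from -0.20 in the band of 0.5 to under 0.709 to 0.31 in the band of 2 or more, but it is -0.01 in the lowest band, under 0.5. The highest and lowest bands hold 6 and 4 rows.

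The GAERS values of the members went with their share of the reads. CPM is not corrected for transcript length, so it is read here as read share and not as a level compared between genes. The 48 members with a mean under 8 CPM had a median GAERS log2 fold change of 0.28, with 47 of 48 above 0 and 8 called. The 82 members from 8 to under 32 CPM had a median of 0.30 with 17 called, and the 27 from 32 to under 128 CPM a median of 0.21 with 3 called. Over tested rows with a mean of 4 CPM or more, 1.86% were called higher. No share over all genes was computed for each class, so the counts by class describe the members alone. The 17 members at 128 CPM or more had a median of 0.02, with 9 of 17 above 0 and 0 called by edgeR. In NEC, the contrast that chose them, their median log2 fold change was 0.65, against 0.54 to 0.56 in the other classes. Their median standard error in GAERS was 0.30, against 0.13 over all members, so these values were also the least precise.

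**Figure D5:**
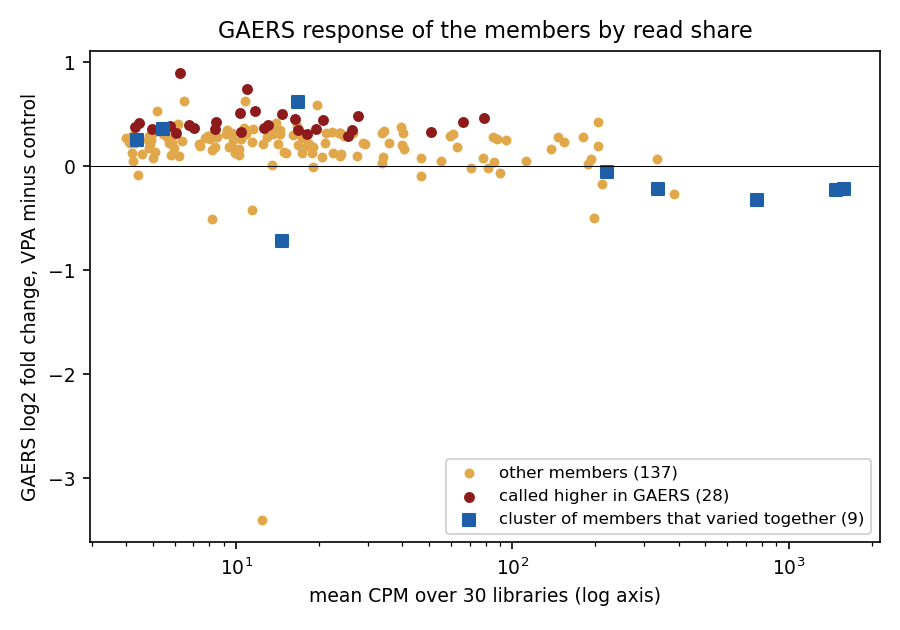
GAERS log2 fold change for VPA (vertical) against the mean CPM over 30 libraries (horizontal, log axis) for the 174 members. The 28 called members lie at 4.30 to 79.0 CPM, and 5 of the 9 members of the cluster that varied together (squares) have a mean of 128 CPM or more.

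Within groups the members varied together. After subtracting each group's mean, the median pairwise correlation between members over the 30 pups was 0.53, and 0.43 without the 4 libraries named above. The same median among the other 11797 rows with a mean of 4 CPM or more was 0.00. NEC libraries that chose the members are among the 30, so this is a description of the set and no test. Clustering on this correlation (average linkage, joined above a correlation of 0.5) gave 22 clusters, of which 3 had 5 or more members. The largest held 123 members, of which 116 were above 0 in GAERS and 17 were called, with a median log2 fold change of 0.28. The next held 13 members with a median of 0.22 and 4 called. Over all tested genes, 1.88% were called higher.

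In the cluster of 9 members most values for VPA in GAERS were below 0. Its members correlated among themselves with a median of 0.92, its median read share was 219.5 CPM, and 6 of the 9 had a GAERS log2 fold change below 0, with a median of -0.22 and 0 called. ENSRNOG00000045989 belongs to it. The level of the cluster, on the scale of the per-pup plot, was 0.60 and 0.55 in GAERS VPA 2 and GAERS VPA 7 and -0.96 and -0.70 in GAERS VPA 4 and GAERS VPA 6, while GAERS controls ran from -0.49 to 0.51. In NEC it was above 1 in NEC VPA 2 and NEC VPA 4 and between -0.27 and -0.23 in NEC VPA 1, 3 and 5. Among GAERS pups, GAERS VPA 4 was the highest in the largest cluster, at 0.42, and the lowest in this one. The remaining 29 members fell in smaller clusters or stood alone, and 7 of them were called in GAERS. The background for these counts was 1.88% of all tested genes called higher.

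The values for VPA in GAERS lay apart in the 2 sets of pups, and the difference between the sets passed the test in no single member. In set A, 3 exposed GAERS pups against 5 controls had a median difference of 0.06 over the members on the log2(CPM + 0.5) scale, with 113 of 174 above 0. In set B, 4 exposed pups against 3 controls had a median difference of 0.48, with 164 of 174 above 0. Over all tested genes the medians were 0.00 in both. In a fit with a mean for each group and set, edgeR called 3 members higher in set A, beside 0.132% of all tested genes, and 60 in set B, beside 1.67%. The difference between the sets had 0 members with an edgeR adjusted p under 0.05, beside 0 of all tested genes, and 66 higher in set B at an unadjusted p under 0.05, beside 4.10%. GAERS control 1 and GAERS VPA 4 both belong to set B. The median difference in set B was 0.35 without the control, 0.43 without the exposed pup and 0.29 without both, where 142 of 174 members were above 0. Without both, edgeR called 0 members higher in set B, beside 0.0252% of all tested genes, and 70 were higher at an unadjusted p under 0.05, beside 4.19%.

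Among non-exposed pups the members' values also lay apart by set. GAERS controls of set B were at -0.47, -0.07 and -0.19 on the per-pup scale, and those of set A at -0.08 to 0.03. The same was seen in NEC controls, at -0.72 to -0.17 in set B and -0.10 to 0.01 in set A, although these libraries took part in choosing the members. Between GAERS controls the members were lower in set B by a median of -0.24, with 159 of 174 below 0. In this comparison edgeR called 1 member lower in set B at an adjusted p under 0.05, the one that divides the pups, beside 0.0315% of all tested genes, and 0 higher. That member was picked because it divides the pups, so its call was fixed in advance and is no result about the members. The tested genes also include the others that divide the pups. At an unadjusted p under 0.05, 28 members were lower, beside 2.49%, and 0 were higher. Between exposed GAERS pups the members were higher in set B by a median of 0.20, with 142 above 0 and 32 below 0. The median over all tested genes there was 0.00. With set as a covariate 34 members were called higher for VPA in GAERS, beside 2.02% of all tested genes, and the median log2 fold change was 0.30. The part of the sets in the VPA difference beyond these values was not tested.

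Across the 4 groups the members were ordered mostly from NEC controls to exposed NEC pups with GAERS in between. The median over members of the group mean was 11.4 CPM in NEC controls, 13.4 CPM in GAERS controls, 15.5 CPM in exposed GAERS pups and 16.5 CPM in exposed NEC pups. The median SD between pups was 14.8% to 19.9% of the mean. In 100 of 174 members the 4 means followed exactly this order. GAERS controls were above NEC controls in 143 members, with a median log2 difference of 0.11, and exposed GAERS pups were below exposed NEC pups in 144, with a median of -0.18. The rule takes rows that were low in NEC controls and high in exposed NEC pups, which favours both differences, so they are given without a test. The same selection enlarges the NEC response of the members, and a difference in response between the strains was therefore not tested.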

How the data were processed

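The authors deposited 1 table of raw counts, with Ensembl genes in rows and 30 libraries in columns. Per the submitters' processing notes, the tools were FastQC and STAR 2.5 and the rat build was Rnor_6.0 (rn6). How reads were counted, on which annotation and with which strand setting is not given in the sources used here. For that reason overlapping, antisense or near-identical genes may share reads. The RefSeq tables at hand carry no Ensembl identifiers, so 0 members matched and gene lists by symbol were not run. Groups came from the labels, and replicates are numbered in order of deposit. No library repeated another of its group (lowest chi-square per degree of freedom between a pair 5.36). Members were chosen on CPM by column total.

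Counts were filtered with filterByExpr (minimum count 10, minimum total 15), scaled by TMM and fitted with edgeR 4.0.16 in R 4.3.3 (robust quasi-likelihood, 4 group means, all 30 libraries), with Benjamini-Hochberg adjustment over 15885 genes. Other CPM values use TMM-scaled library sizes. The fit was tested on simulated data. Alternatives used DESeq2 1.42.0 and limma 3.58.1, other scaling, filters, covariates, membership rules and left-out libraries. The named members are the 2 with the highest log2 fold change among those called higher in GAERS and the 2 with the lowest. The members, lists and tests were chosen with earlier results of these data known. The sets of pups, the fits leaving out several libraries together, clusters, ratio bands and read-share classes were added after the data were examined.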

Additional observations from a re-analysis of the deposited data

Results flagged for a closer look

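In 32 comparisons of the pups of a group among themselves, 4 had a highest or lowest pup with a wide gap to its neighbour (Dixon's test), where chance flags about 1 in 20 groups, or 1.6. ENSRNOG00000011207 was at 39.0 CPM in NEC VPA 6, with the next pup of the group at 16.7 CPM. ENSRNOG00000045989 was at 18.7 CPM in NEC control 2, with the next at 12.002 CPM. GAERS control 1 had a median member level of -0.47 on the log2 scale, with the next control at -0.19. The same pup was at -0.58 in the cluster of 123 members, with the next at -0.22. That cluster is part of the members, so these last 2 flags are not independent. The count of 4 is therefore not a test against 1.6.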

How the results depend on the processing

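The median GAERS log2 fold change of the members stayed above 0 under all alternatives run on both sets of pups together, from 0.17 to 0.31. In each of them 0 members were called lower. In the fit with a mean for each group and set, the median was 0.49 in set B and 0.07 in set A. In set A 3 members were called higher, beside 0.132% of all tested genes. The count called higher, 28, moved by more than 1.5 times with GAERS VPA 4 left out (11, beside 0.890% of all tested genes). It did so too with GAERS VPA 4 and GAERS control 1 left out together (10, beside 1.21%). Other membership rules moved it as well: a mean of at least 10 CPM (18 of 112 members), members chosen without NEC VPA 1 (17 of 129 members) and a ratio of at least 2 (1 of 6 members). These rules changed the number of members and kept the background of 1.88%, so a moved count there is not by itself a moved rate. Leaving out each GAERS library gave 11 to 31 called, beside 0.890% to 2.33% of all tested genes, and a median of 0.21 to 0.29. Members without overlap then numbered 7 to 26, beside 0.504% to 0.850% of all tested genes. Choosing members without each NEC library gave 17 to 36 called, beside 1.88% of all tested genes, and medians of 0.24 to 0.28. Without NEC VPA 7, 123 of the 174 were chosen again, and with TMM-scaled CPM 150 were. Beside 1.88% of all tested genes called higher in the reported fit, DESeq2 called 2.78%, with 35 members and all 28 kept, limma 3.31%, with 32 members and 27 kept, and GAERS libraries alone 1.69%, with 32 members and 26 kept. In set B alone, 60 members were called higher, beside 1.67% of all tested genes. Without GAERS control 1 and GAERS VPA 4, 0 were, beside 0.0252%. With log2 total count as a covariate 21 were called, beside 1.46% of all tested genes. ENSRNOG00000032720 lost its call in 2 of 27 alternatives, given above. No paired analysis was possible because nothing in the labels ties one pup to another.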
